A study of Mus musculus with 50 samples.

Results

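The comparison described here is the step from 24 to 26 months of age in mouse gastrocnemius, the large calf muscle, over which male C57BL/6JRj mice pass from the phase the study calls early sarcopenic into the one it calls sarcopenic. Its members are 17 of the 50 mice sequenced, 8 labelled 24 months and 9 labelled 26 months, chosen by their age label alone. C57BL/6JRj is an inbred laboratory strain, and all 17 mice were untreated males with no engineered allele. They were housed singly and ate the purified AIN-93M diet from the age of 18 or 19 months until dissection. Animals with overt illness or tumors had been left out, so that the 26 months-old mice are survivors in apparent good health. Each library came from the muscle of one mouse, and mice are named below by their age and the replicate number of their label.

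Sarcopenia is the loss of muscle mass and force with age. Muscle mass follows the balance between protein synthesis and breakdown. Breakdown runs through the ubiquitin-proteasome system, in which muscle-specific ubiquitin ligases mark contractile proteins, and through autophagy and the lysosome. Transcription factors of the FOXO family and the glucocorticoid receptor, both active in fasting and illness, are known to induce the genes of these routes, while loss of contact with the motor nerve induces a further set that includes the acetylcholine receptor subunits and the myogenic factor myogenin.

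Total counts ran from 13607229 to 17321777 in the 24 months-old mice and from 13920425 to 18945656 in the 26 months-old mice, and 12586 genes were tested, those that reached 1 CPM (a count scaled to the library total) in 8 or more of the 50 mice. The 10 genes fixed as markers of skeletal muscle, which include Acta1, Ckm, Ttn and Mb, were detected and together held 83194 to 91243 TPM, a unit scaled by transcript length and library size, at 24 months and 73857 to 100786 TPM at 26 months. Markers of macrophages, fibroblasts, endothelium, adipocytes, Schwann cells, tendon, blood and lymphocytes were present too, and none was at 0 in all 17 mice. The samples are whole muscle, so that fewer cells of a type and less RNA per cell cannot be told apart.

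On the first principal component (PC1) of log2(TPM + 1) over all 50 mice, which carried 37.7% of the variance, the 24 months-old mice lay between -13.8 and 8.76. The 26 months-old mice lay between -0.763 and 39.7. Mouse 1 had the highest coordinate at 39.7, followed by mouse 8 at 31.1, mouse 3 at 20.8 and mouse 6 at 16.3. Mice 9, 4, 5, 2 and 7 were at 9.79, 8.07, 4.82, 0.406 and -0.763, and the last 4 of these were inside the range of the younger group. The difference of the means was 16.7 (-2.22 ± 6.66 SD, n = 8, against 14.5 ± 13.9 SD, n = 9, two-sided exact permutation test, p = 0.00481). The mean distance of a mouse from the median of its age was 4.53 at 24 months and 10.6 at 26 months, and this difference in spread did not pass the threshold (two-sided exact permutation test, p = 0.215).

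**Figure D1:**
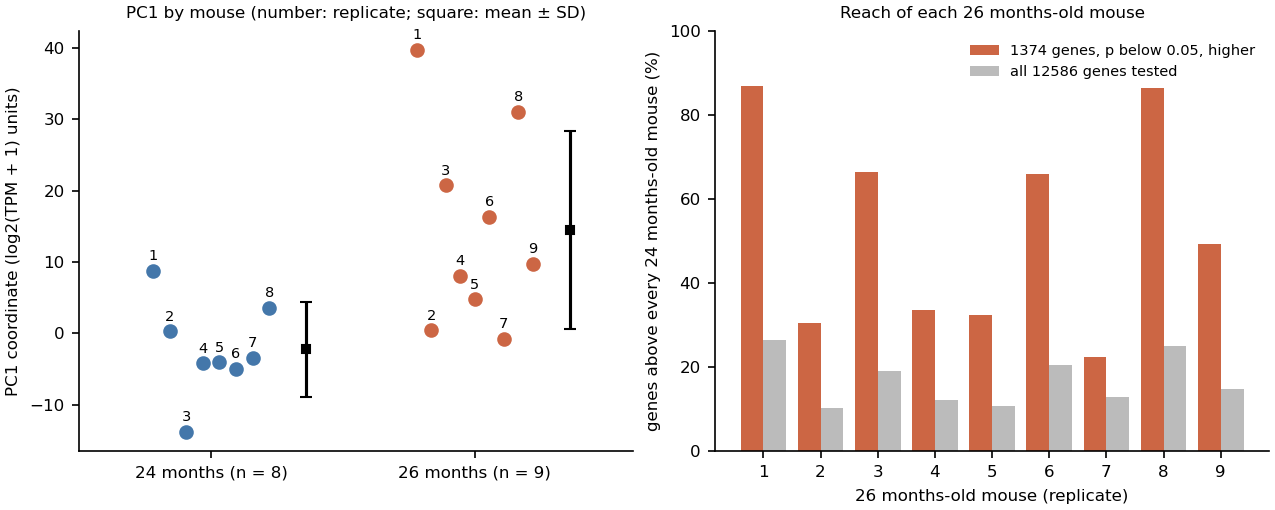
Left, the PC1 coordinate of each of the 17 mice by age, with the replicate number above each point and the mean ± SD as a square with a bar. Right, for each 26 months-old mouse, the percentage of genes above the highest of the 8 mice of 24 months, among the 1374 genes that were higher at an unadjusted p below 0.05 (orange) and among all 12586 genes tested (grey). Mice 1 and 8 reach 86.8% and 86.5% of the 1374 genes and mouse 7 reaches 22.3%.

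The same mice stood furthest from the younger group in single genes. Of the 1374 genes with a higher mean at 26 months and an unadjusted p below 0.05, mouse 1 was above every 24 months-old mouse in 86.8% and mouse 8 in 86.5%. Mice 3 and 6 were above in 66.3% and 65.9%, and mouse 9 in 49.3%. The share was 33.6% in mouse 4, 32.2% in mouse 5, 30.4% in mouse 2 and 22.3% in mouse 7. These genes were chosen on the same mice, so that the shares describe which animals stand behind the difference and are no test of it. Over all 12586 genes the shares ran from 10.3% in mouse 2 to 26.5% in mouse 1. The SD of log2 CPM was larger at 26 than at 24 months in 8460 genes (67.2% of those tested), with a median ratio of 1.20. The 9 mice of 26 months ran from animals close to the younger group to 2 animals far from it.

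Gene by gene, the step was small against the spread between mice. At the study's threshold of FDR 0.01, edgeR's quasi-likelihood test called 0 of 12586 genes (0.0%), whereas 2202 genes (17.5%) had an unadjusted p below 0.05, and DESeq2 called 14 at FDR 0.01. At FDR 0.05 there were 5 genes (0.0397%), 4 higher (0.0318%) and 1 lower (0.00795%) at 26 months. Leaving out 1 mouse moved this number between 0 (without mouse 1, 8 or 9 of 26 months, for example) and 183 (without mouse 7 of 26 months). At FDR 0.10, a threshold added after the data were seen, there were 394 genes (3.13%), of which 284 (2.26%) were higher and 110 (0.874%) lower. Of the 2202 genes at an unadjusted p below 0.05, 1374 were higher (10.9% of genes tested) and 828 lower (6.58%). The split between directions depended on the scaling, with 62.4% of these calls higher under TMM factors, 48.2% under upper-quartile factors and 45.4% with limma on log2(TPM + 1). The median log2 difference of all genes was 0.005 and the median size of a difference was 0.12. A difference of 2-fold or more was seen in 62 genes with higher means (0.493%) and 17 with lower means (0.135%). In 11 genes (0.0874%) all 9 older mice were above all 8 younger ones, among them Cblb, Mt1 and the growth factor signalling inhibitor Errfi1, and in 7 (0.0556%) all 9 were below.

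The gene of the 5 with the largest difference at a high level was Tbc1d1. It encodes a Rab GTPase-activating protein that restrains the movement of the glucose transporter GLUT4 to the muscle surface. It lies on chr5:64156305-64351486 (GRCm38, plus strand). At 24 months its level was 56.0, 67.9 and 84.1 CPM (lowest, median and highest of 8 mice), and at 26 months 76.0, 136 and 169 CPM (9 mice). Mouse 5 of 26 months alone fell within the younger range. Tbc1d1 rose 1.86-fold (log2 0.89, SE 0.19, edgeR adjusted p = 0.0435).

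Map2k3, on chr11:60932033-60952811 (plus strand), encodes a kinase that activates the stress kinase p38. Its lowest, median and highest levels were 128, 157 and 169 CPM at 24 months and 165, 195 and 296 CPM at 26 months. Only mouse 4 was below the highest of the younger mice, and mouse 8 stood apart from the rest at 296 CPM. Map2k3 rose 1.35-fold (log2 0.43, SE 0.09, edgeR adjusted p = 0.0435). Hsf2 on chr10:57486385-57513135 (plus strand), a heat shock transcription factor, was at 25.1, 27.7 and 31.5 CPM at 24 months. It was at 31.1, 35.6 and 54.0 CPM at 26 months, where 7 of 9 mice were above the younger range. Hsf2 rose 1.33-fold (log2 0.41, SE 0.09, edgeR adjusted p = 0.0435). In the heat shock list described below 8 of 16 members had a log2 difference above 0, and none passed an unadjusted p below 0.05.

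The remaining 2 genes were at a few CPM or less. Glra3 on chr8:55940460-56130070 (plus strand), a subunit of the glycine receptor, an ion channel known from the nervous system, was at 0, 0.186 and 1.42 CPM (lowest, median and highest) at 24 months and at 0.488, 1.32 and 5.29 CPM at 26 months. Mice 1, 9, 7 and 8 were above the younger range and the other 5 within it. Glra3 rose, with a log2 difference of 2.37 (SE 0.48, edgeR adjusted p = 0.0435). Its mean was 0.056, 0.16, 0.31 and 0.42 CPM at 8, 18, 22 and 24 months and 2.19 and 2.45 CPM at 26 and 28 months. It thus passed the filter of 1 CPM in 8 or more mice mainly through mice of 26 and 28 months, where it is high. Pcdh12, a protocadherin of the endothelium, fell from 2.87, 3.58 and 5.41 CPM to 0.939, 1.79 and 2.73 CPM (log2 -1.06, SE 0.22, edgeR adjusted p = 0.0435). All 9 older mice were below all 8 younger ones for Pcdh12. The calls of all 5 genes lie close to the threshold: the adjusted p was 0.0551 for each under upper-quartile factors.

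**Figure D2:**
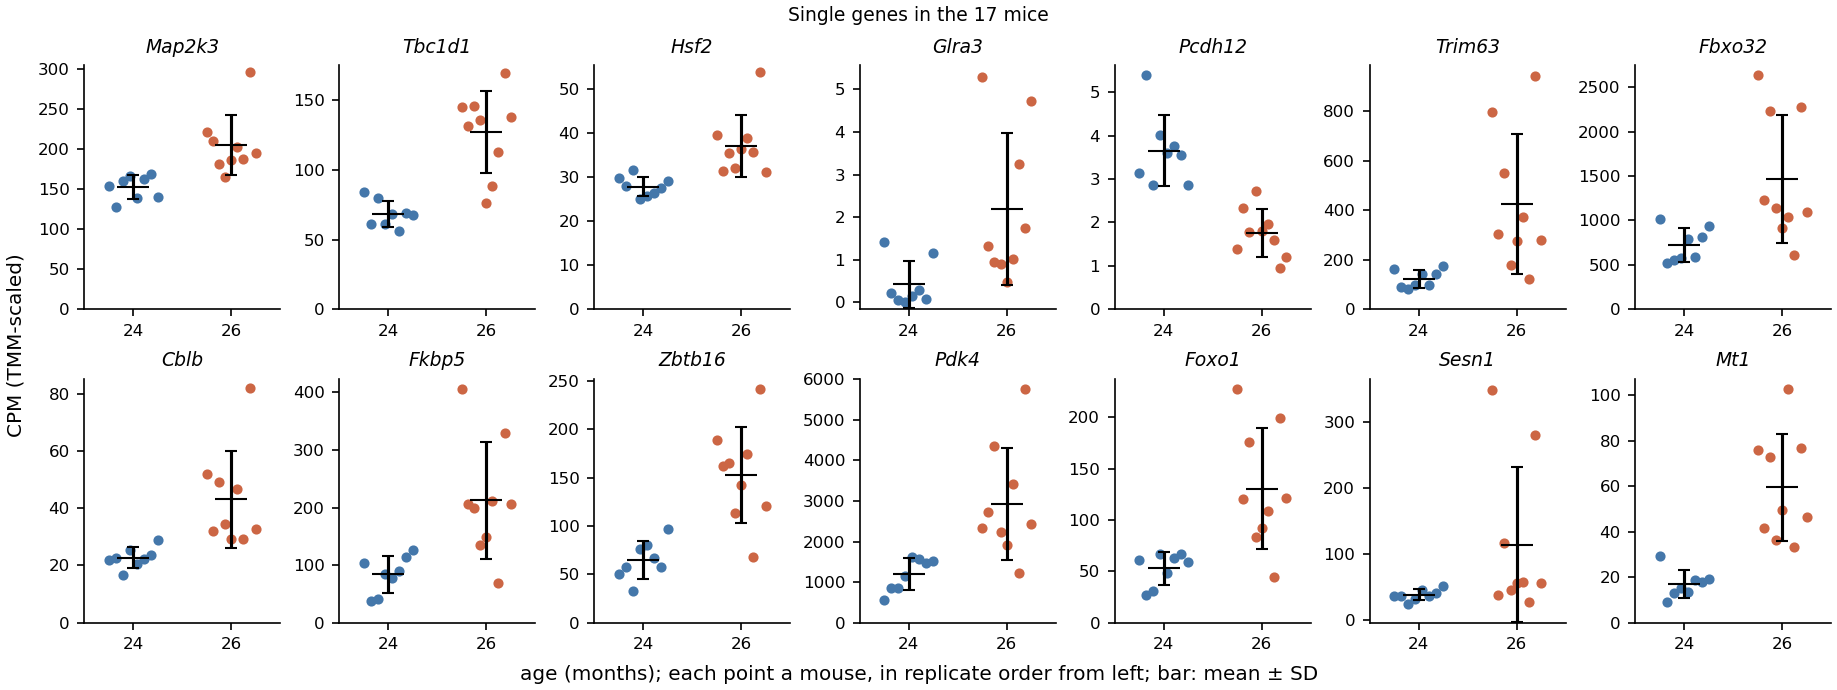
Levels in CPM of 14 genes in each mouse at 24 months (blue, n = 8) and 26 months (orange, n = 9), in replicate order from left, with the mean ± SD as a black bar. The first 5 panels are the genes past FDR 0.05. In Trim63, Fbxo32 and Sesn1 the mean at 26 months is drawn up by mice 1, 3 and 8, whereas Mt1 lies above the younger range in all 9 mice.

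Protein breakdown was covered by 4 lists. Of the 14 tested ubiquitin ligases and partners linked to atrophy, 6 were higher and none lower at an unadjusted p below 0.05 (background 10.9% higher), with a median log2 difference of 0.22. Their mean level per mouse lay above every 24 months-old mouse in 8 of the 9 mice of 26 months. Trim63 (chr4:134315120-134329629, plus strand), also known as MuRF1, is the ligase that marks thick filament proteins. Its lowest, median and highest levels were 80.6, 120 and 174 CPM at 24 months and 121, 305 and 942 CPM at 26 months. Mouse 8 reached 942 CPM, mouse 1 796 CPM and mouse 3 550 CPM, whereas mouse 7 stayed within the younger range at 121 CPM. The log2 difference was 1.79 (SE 0.38), a 3.45-fold higher mean, and the edgeR adjusted p of 0.0502 was just outside FDR 0.05. Corrected for transcript length, Trim63 held 185 ± 47.8 TPM at 24 months and 632 ± 406 TPM at 26 months (SD, n = 8 and 9).

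Fbxo32, or atrogin-1, the substrate receptor of a second muscle ubiquitin ligase, was at 523, 686 and 1017 CPM at 24 months and at 612, 1134 and 2642 CPM at 26 months. Again mice 1, 8 and 3 were highest and mouse 7 lowest, and 7 of 9 were above the younger range (log2 1.01, SE 0.31, edgeR adjusted p = 0.0894). Cblb, a ligase that degrades the insulin receptor substrate IRS1, was at 16.6, 22.4 and 29.0 CPM and then at 29.3, 34.3 and 81.9 CPM. The 2 groups did not overlap for Cblb (log2 0.92, SE 0.22, edgeR adjusted p = 0.0569).

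Because Trim63 had the largest log2 difference of these ligases, the 250 bases before its transcription start are shown as given by RefSeq for GRCm38.p6 (chr4:134314870-134315119, plus strand), with a glucocorticoid response element and a forkhead element, which stand side by side, in capitals.
Trim63: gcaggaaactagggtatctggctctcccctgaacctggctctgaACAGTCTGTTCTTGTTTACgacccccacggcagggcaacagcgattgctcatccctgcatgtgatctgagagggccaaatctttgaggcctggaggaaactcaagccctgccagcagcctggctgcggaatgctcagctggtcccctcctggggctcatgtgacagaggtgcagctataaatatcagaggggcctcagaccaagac
The glucocorticoid element was searched on both strands as ACA, any 3 bases and TGTTCT, and covers the bases from -206 to -195 before the start. The forkhead element was searched on both strands as GTAAACA and covers the bases from -194 to -188 in reverse, so that the matches adjoin without overlap. The first pattern was found in 121 of 32851 windows of this length (0.368%), the second in 1040 (3.17%) and both in 3 (0.00913%). Among the 24 genes with a window in the glucocorticoid and fasting list described below, Sgk1 and Trim63 held the first pattern and Klf9 and Trim63 the second. A match describes the letters of the window and shows neither binding nor use.

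Of 19 tested autophagy genes, 9 were higher (47.4%, against 10.9% of all genes) and 1 lower at an unadjusted p below 0.05, and the median log2 difference was 0.16. The forkhead factor Foxo1, counted in this list as a regulator, was at 27.1, 59.9 and 67.1 CPM at 24 months and at 44.9, 120 and 228 CPM at 26 months, above the younger range in 8 of 9 mice (log2 1.30, SE 0.36, edgeR adjusted p = 0.0782). The initiating kinase Ulk1 had a log2 difference of 0.47 and the cargo receptor Sqstm1 one of 0.44, with edgeR adjusted p of 0.108 and 0.0892. Proteasome subunits had small differences, all of the same sign: 31 of 31 were above 0 under TMM factors and 27 of 31 under upper-quartile factors, the median was 0.13 (0.084 without mouse 2 of 24 months), and 6 were higher at an unadjusted p below 0.05 (19.4%, against 10.9%). The regulatory subunit Psmd11 had the lowest p of these (log2 0.35, SE 0.13). Lysosome genes had a median of 0.08 with 6 of 23 higher (26.1%), led by the cholesterol transporter Npc1 (log2 0.83, SE 0.24, edgeR adjusted p = 0.0799). The Kelch protein Klhl38, named after its values were seen, had a log2 difference of 1.06 with an edgeR adjusted p of 0.0569.

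Many of the genes with the lowest p are known to respond to glucocorticoids or to fasting. A list of 30 such genes was therefore put together from general knowledge after the values had been seen, so that its count describes the pattern and does not test it. Of the 29 tested members, 29 had a log2 difference above 0 (51.0% of all genes did), 23 (79.3%) were higher at an unadjusted p below 0.05 and 15 at FDR 0.10 (background 2.26%), and the median log2 difference was 0.91. The mean level of the list, as log2(TPM + 1) relative to the 17 mice, ran from -0.80 to -0.25 at 24 months and from -0.19 to 0.99 at 26 months, without overlap. Mouse 8 was highest at 0.99, mice 1 and 3 followed at 0.75 and 0.74, and mice 4 and 7 were lowest at -0.06 and -0.19. Trim63, Fbxo32, Foxo1, Sesn1, Mt1, Mt2 and Cdkn1a stand in this list and in others, so that the lists are not independent of one another.

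Fkbp5, a co-chaperone of the glucocorticoid receptor and one of its best known targets, was at 38.0, 86.9 and 126 CPM at 24 months and at 68.2, 206 and 405 CPM at 26 months. Mice 1 and 8 were highest at 405 and 330 CPM and mouse 7 was within the younger range (log2 1.34, SE 0.33, edgeR adjusted p = 0.0569). Zbtb16, a zinc finger repressor induced by the same receptor, was at 33.3, 62.3 and 96.8 CPM and then at 67.9, 162 and 242 CPM (log2 1.24, SE 0.28, edgeR adjusted p = 0.0569). Glul, which makes glutamine, the amino acid that muscle exports in catabolic states, was at 332, 641 and 955 CPM and then at 834, 1372 and 2419 CPM (log2 1.15, SE 0.30, edgeR adjusted p = 0.0653). The mTORC1 inhibitor Ddit4 (REDD1) had a log2 difference of 1.54, the transcription factor Cebpd one of 1.59, Klf15 one of 0.66 and the receptor Nr3c1 itself one of 0.39. Other well known targets showed little difference in these mice: Tsc22d3 (GILZ) had a log2 difference of 0.31 (SE 0.23), Per1 one of 0.09 (SE 0.21), and Mstn, which encodes myostatin, one of 0.16 (SE 0.19).

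**Figure D3:**
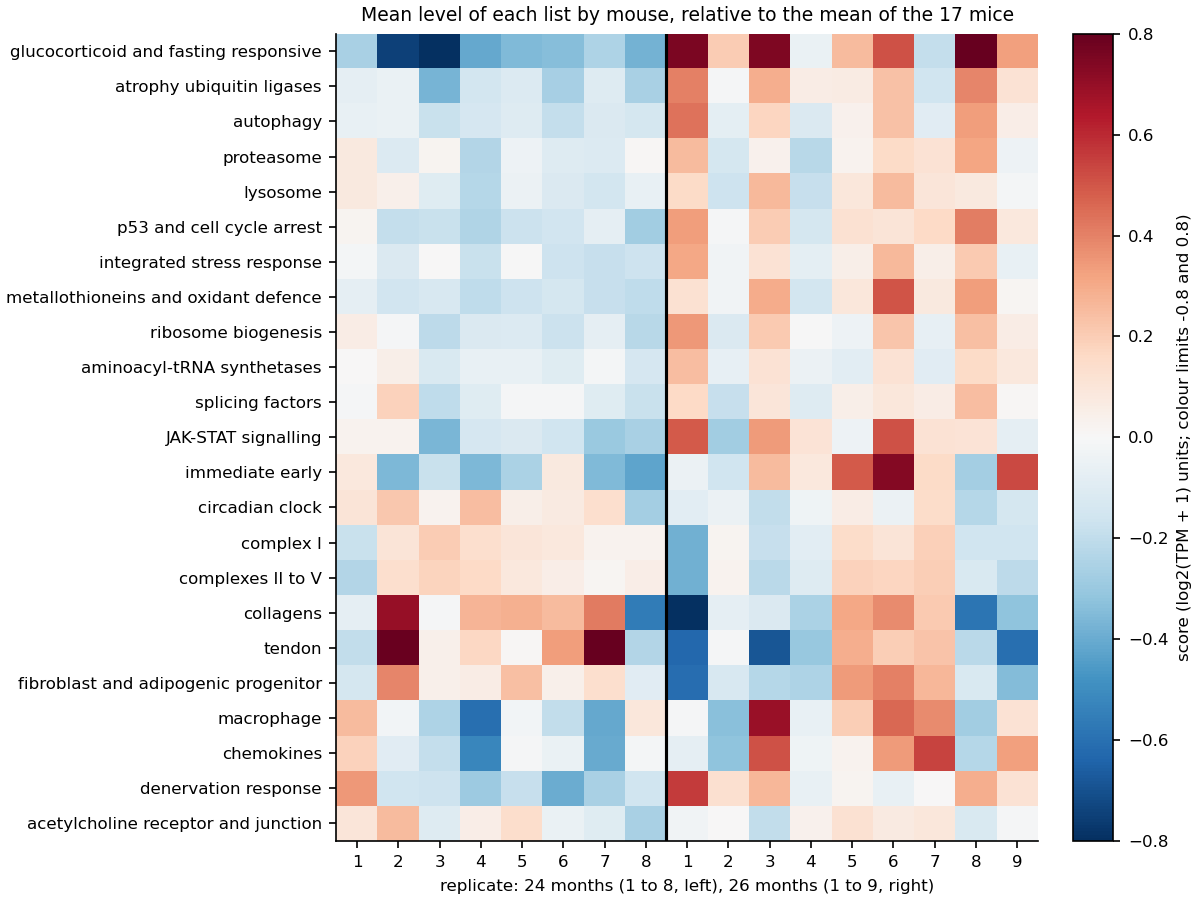
Mean level of 23 gene lists in each of the 17 mice, as log2(TPM + 1) relative to the mean of the 17 mice, with the 8 mice of 24 months left and the 9 of 26 months right of the black line (red above, blue below the mean, colours end at -0.8 and 0.8). In the top row, the glucocorticoid and fasting list added after the data were seen, every 26 months-old mouse is above every 24 months-old mouse; in the rows of complex I and of the collagens, mouse 1 of 26 months is the lowest.

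Some genes of fuel choice stood among those with the lowest p. Pdk4, the kinase that shuts off pyruvate entry into the citrate cycle and so favours fat, was at 570, 1314 and 1629 CPM at 24 months and at 1231, 2420 and 5752 CPM at 26 months, above the younger range in 8 of 9 mice (log2 1.29, SE 0.33, edgeR adjusted p = 0.0618). Of the 26 fatty acid oxidation genes, 4 were higher at an unadjusted p below 0.05 (15.4%, near the 10.9% of all genes), among them the mitochondrial thioesterase Acot2 (log2 1.04) and the uncoupling protein Ucp3 (0.80), and the median of the list was 0.04. The lipid droplet protein Plin4 had a log2 difference of 0.92 (SE 0.23, edgeR adjusted p = 0.0569). It counts among the adipocyte markers, of which 6 of 11 tested were below 0, with a median of -0.16. At an unadjusted p below 0.05, 1 was higher and 1 lower (9.09% each, against 10.9% and 6.58% of all genes). The summed level of these markers ranged from 2677 to 3485 TPM at 24 months and from 2244 to 4048 TPM at 26 months. The coactivator Ppargc1a had a log2 difference of 0.82 (SE 0.34), and Nmrk2, a muscle kinase of the nicotinamide riboside route to NAD, one of -1.06 (SE 0.49). Mouse 1 was at the extreme for Nmrk2 with 3.51 CPM, against 24.7 to 154 CPM in the younger mice.

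Subunits of the respiratory chain had slightly lower means. For complex I, 35 of 36 members were below 0 (49.0% of all genes) with a median log2 difference of -0.11, and for complexes II to V 37 of 40 with a median of -0.09. Without mouse 1 of 26 months these medians were -0.07 and -0.06. Hardly any member passed an unadjusted p below 0.05: in complex I 1 was higher and 1 lower, in the other complexes none in either direction. The mean level of complex I ranged from -0.18 to 0.20 at 24 months and from -0.39 to 0.19 at 26 months, and only mice 1 and 3 of the older group were below the younger range. The citrate cycle (median -0.03), the mitochondrial ribosome (-0.05) and the glycolytic and glycogen genes (0.06) had medians close to that of all genes.

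Stress and growth arrest genes belonged to the groups with several higher members. Sesn1, a leucine-sensing inhibitor of mTORC1 and a p53 and FOXO target, was at 24.4, 36.3 and 51.8 CPM at 24 months and at 27.1, 56.5 and 348 CPM at 26 months. Mice 1, 8 and 3 stood at 348, 280 and 117 CPM, and no other mouse exceeded 57.3 CPM (log2 1.60, SE 0.41, edgeR adjusted p = 0.0619). In the p53 and cell cycle arrest list 8 of 22 members were higher (36.4%, against 10.9% of all genes) and none lower at an unadjusted p below 0.05, with a median of 0.16. The cell cycle inhibitor Cdkn1a (p21) had a log2 difference of 0.91 (SE 0.32) and the p53-induced receptor Eda2r one of 0.51 (SE 0.19). The p53 targets Mdm2, Bax and Ccng1 had log2 differences of 0.09, 0.06 and -0.07.

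The metallothioneins Mt1 and Mt2, which bind zinc and copper, differed in nearly every mouse. Mt1 was at 9.09, 16.5 and 29.3 CPM at 24 months and at 33.3, 49.7 and 103 CPM at 26 months, without overlap (log2 1.81, SE 0.48, edgeR adjusted p = 0.0681). Mt2 was at 6.79, 13.3 and 32.5 CPM and then at 32.3, 51.7 and 101 CPM, with a single mouse of each age in the overlap (log2 1.94, SE 0.54, edgeR adjusted p = 0.0784). The oxidant defence genes Srxn1, Hmox1 and Txnrd1 had log2 differences of 1.22, 0.88 and 0.46. In the list of 21 genes as a whole 6 were higher (28.6%, against 10.9% of all genes) and none lower. Of 17 genes of the integrated stress response, which limits translation when amino acids are short or proteins misfold, 6 were higher (35.3%, against 10.9% of all genes). The amino acid transporter chain Slc3a2 (log2 0.38, SE 0.11) and the translation inhibitor Eif4ebp1 (0.94, SE 0.28) led them, while Ddit3 and Trib3 had differences of -0.26 and -0.14. In the heat shock list none of 16 members passed in either direction.

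The 45 lists were chosen with earlier results of these data known, so that their ranking is no test. Among them, the genes that build ribosomes had the largest share of members at an unadjusted p below 0.05. Of 26 tested, 17 were higher (65.4%, against 10.9% of all genes) and none lower, and the median log2 difference was 0.27. Single differences ran from -0.05 to 0.44: the methyltransferase Nop2 was at 19.1, 21.2 and 24.6 CPM at 24 months and at 21.0, 27.9 and 32.6 CPM at 26 months (log2 0.32, SE 0.09, edgeR adjusted p = 0.0799). The helicase Ddx21 had a log2 difference of 0.44, nucleophosmin Npm1 one of 0.35 and nucleolin Ncl one of 0.27, whereas Fbl, Dkc1 and Wdr12 lay between -0.05 and 0.08. The number of higher members was 15 under upper-quartile factors and 10 with limma on log2(TPM + 1). Among 20 aminoacyl-tRNA synthetases, the enzymes that charge tRNAs, 9 were higher (45.0%, and 6 under upper-quartile factors), led by Eprs (log2 0.37, SE 0.12). Among 37 splicing factors 10 were higher (27.0%, against 10.9% of all genes), led by the kinase Clk4 (log2 0.36, SE 0.12), and the ribonucleoprotein Hnrnpa1 had a difference of 0.39. Genes that restrain translation, such as Eif4ebp1, Ddit4 and Sesn1, and genes that make ribosomes both had higher means at 26 months. Mice 1, 8, 6 and 3 had the highest levels of the ribosome list, 0.35, 0.24, 0.22 and 0.21, and mouse 2 the lowest of its age at -0.12.

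Nerve contact was covered by 2 lists that leaned in opposite directions. Of 15 tested genes of the acetylcholine receptor and the junction, 2 were higher (13.3%, near the 10.9% of all genes) at an unadjusted p below 0.05. As many, 2, were lower (13.3%, against 6.58% of all genes). In this list 11 were below 0, and the median log2 difference was -0.03, which turned to 0.01 without mouse 6 of 26 months. The receptor subunit Chrna1, induced when the nerve is lost, was at 24.0, 31.2 and 55.3 CPM at 24 months and at 20.7, 37.5 and 43.0 CPM at 26 months (log2 -0.01, SE 0.14). Myogenin, Myog, likewise overlapped fully, at 2.93 to 8.77 CPM and 2.24 to 11.3 CPM (log2 0.12, SE 0.34), and so did Runx1, at 4.04 to 18.1 CPM and 4.35 to 11.6 CPM. The subunit Chrnb1 (log2 0.39, SE 0.12, edgeR adjusted p = 0.0900) and the receptor kinase Musk (0.63, SE 0.23) had higher means, and the agrin receptor Lrp4 (-0.37) a lower one. In the denervation list 15 of 18 members were above 0, and the median of 0.29 was 0.47 without mouse 1 of 24 months, which had the highest level of this list in its age. The higher members at an unadjusted p below 0.05, 3 of 18 (16.7%, near the 10.9% of all genes), were Trim63, Fbxo32 and Sln. Trim63 and Fbxo32 stand among the ubiquitin ligases as well. Hdac9, a histone deacetylase known to fall on denervation, was at 4.74, 7.97 and 10.6 CPM and then at 2.09, 2.94 and 6.49 CPM, below the younger range in 7 of 9 mice (log2 -1.12, SE 0.26, edgeR adjusted p = 0.0569).

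Sln encodes sarcolipin, which uncouples the calcium pump of the sarcoplasmic reticulum. It was at 6.73, 8.12 and 45.5 CPM at 24 months and at 9.86, 30.7 and 64.9 CPM at 26 months. Mouse 1 of 24 months was far above its group and only 3 older mice exceeded it (log2 1.19, SE 0.37, edgeR adjusted p = 0.0894). In the calcium handling list 12 of 17 members were below 0, and the median was -0.05. At an unadjusted p below 0.05, 3 were higher (17.6%, against 10.9% of all genes) and 2 lower (11.8%, against 6.58%). Contractile genes differed little. The fast fibre list had a median of -0.01 (0.03 without mouse 8 of 24 months). In it 1 of 14 members was higher (7.1%, near the 10.9% of all genes), the calcium pump Atp2a1 (log2 0.21, SE 0.10). The main fast myosin Myh4 was at 48511 to 80536 CPM and 49712 to 90455 CPM. The slow fibre list had a median of -0.18 with none of 11 members passing, a value that ran from -0.30 without mouse 4 of 26 months to -0.02 without mouse 2 of 24 months, and the slow myosin Myh7 varied more than 4-fold within each age, from 245 to 1077 CPM and from 98.4 to 1076 CPM. Ion channels of the muscle membrane had a median of 0.00 with 1 of 16 higher (6.25%, against 10.9% of all genes). The sign of this median turned under upper-quartile factors. Strain-responsive genes had a median of 0.35 with 4 of 15 higher (26.7%, against 10.9% of all genes). Filamin C, Flnc, led them (log2 0.62, SE 0.19), at 762, 886 and 1269 CPM and then 871, 1336 and 2020 CPM, and Xirp1 had a difference of 0.80. The level of the strain list had a median over mice of -0.09 at 24 months and -0.12 at 26 months. Only 3 of 9 older mice were above the younger range for it. Of the 12 tested myogenic and satellite cell genes, 1 was higher (8.33%, against 10.9% of all genes) at an unadjusted p below 0.05. In the same list 2 were lower (16.7%, against 6.58% of all genes), and the median was 0.10. Myf6 had a difference of 0.53 (SE 0.19).

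Collagen and tendon genes had the lowest medians of all lists. Of 18 tested collagens, 17 were below 0 and 5 were lower at an unadjusted p below 0.05 (background 6.58%), with a median log2 difference of -0.40. Col15a1, a basement membrane collagen, was at 9.49, 21.4 and 27.8 CPM at 24 months and at 5.69, 11.8 and 21.3 CPM at 26 months (log2 -0.72, SE 0.23, edgeR adjusted p = 0.103). Mice 1, 8 and 9 were below the younger range, at 5.69, 7.15 and 8.78 CPM, and mouse 8 of 24 months was the lowest of its own age. Chains of collagen VI, which anchors fibres to the matrix, had differences of -0.59 (Col6a2), -0.44 (Col6a1) and -0.43 (Col6a3), and the fibrillar Col1a1 and Col3a1 of -0.54 and -0.37. Of the 9 tendon genes 4 were lower (44.4%, against 6.58% of all genes) and none higher, with Kera and Chad at -1.02 and -1.01. The summed level of the tendon markers was 152 to 338 TPM at 24 months and 105 to 272 TPM at 26 months. How far tendon in the dissected piece bears on the collagens was not tested. Fibroblast markers summed to 1530 to 2109 TPM and 1525 to 2301 TPM, and the median log2 difference of 13 of them was -0.16 (-0.05 without mouse 1 of 26 months). Lox, which crosslinks collagen, went the other way, with 11.9, 20.2 and 29.0 CPM and then 19.5, 33.9 and 55.1 CPM (log2 0.77, SE 0.23, edgeR adjusted p = 0.0847).

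Of 25 growth factor genes 4 were higher (16.0%) and 3 lower (12%), near the shares of all genes (10.9% and 6.58%), and Gdf11, a relative of myostatin, had a log2 difference of -0.80 (SE 0.26). In JAK-STAT signalling, the route of interleukin-6 and related cytokines, 7 of 21 members were higher (33.3%, against 10.9% of all genes) and none lower, with a median of 0.38 that was 0.23 without mouse 1 of 26 months. The interleukin-6 receptor Il6ra was at 10.8, 14.0 and 18.3 CPM and then at 13.1, 22.6 and 69.4 CPM (log2 1.13, SE 0.34, edgeR adjusted p = 0.0847), and the common chain Il6st, Stat3 and Myc had differences of 0.28, 0.41 and 0.72. Stat2, which acts downstream of interferon, was at -0.26.

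Immune genes differed by group. Complement had 6 of 16 members higher (37.5%, against 10.9% of all genes) and a median of 0.26. C4b was at 33.6, 47.4 and 90.6 CPM and then at 54.1, 80.3 and 115 CPM (log2 0.70, SE 0.20, edgeR adjusted p = 0.0799). Macrophage markers had a median of 0.27 and 5 of 18 genes higher, against 10.9% of all genes. They were led by Cd163, the scavenger receptor of resident macrophages (log2 0.65, SE 0.22), and summed to 203 to 493 TPM at 24 months and 281 to 592 TPM at 26 months. C1qa stands in the complement list and among the macrophage markers, and the part of macrophage RNA in the complement values was not tested. Antigen presentation (median -0.12, none of 21 passing) and interferon-stimulated genes (median -0.18, none of 24 passing, -0.31 without mouse 6 of 26 months) had slightly lower means. Among chemokines, Cxcl13, which attracts B cells, had the largest log2 difference of all genes named here, 2.96 (SE 0.67, edgeR adjusted p = 0.0569), at 0.831, 1.88 and 8.70 CPM and then 2.33, 9.25 and 78.5 CPM. Mice 3, 9 and 1 reached 78.5, 70.8 and 29.0 CPM and 4 of 9 were within the younger range. Lymphocyte markers summed to 13.9 to 45.0 TPM and 10.1 to 54.6 TPM and were too few among the tested genes, 4, to describe further.

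The levels of other cell types overlapped between the ages. Endothelial markers summed to 490 to 769 TPM and 496 to 722 TPM. Of these 1 of 15 was lower (6.67%, near the 6.58% of all genes), the growth factor receptor Kdr (log2 -0.50, SE 0.19). Schwann cell markers summed to 98.9 to 208 TPM and 94.5 to 191 TPM, and blood markers to 1442 to 5739 TPM and 1106 to 4186 TPM.

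Clock genes differed in both directions. Of 16 tested, 3 were higher (18.8%, against 10.9% of all genes) and 6 lower (37.5%, against 6.58%) at an unadjusted p below 0.05. Dbp, an output gene of the clock with a strong daily rhythm, was at 50.3, 86.1 and 106 CPM at 24 months and at 9.55, 33.0 and 68.4 CPM at 26 months. Mice 1, 8 and 9 were lowest, at 9.55, 13.9 and 20.1 CPM, and mice 8 and 1 of 24 months were the lowest of the younger group (log2 -1.11, SE 0.33, edgeR adjusted p = 0.0847). The repressor Ciart had a log2 difference of -0.94 (SE 0.23, edgeR adjusted p = 0.0569), Hlf one of -0.56 and Nr1d1 one of -0.50. Nfil3, which acts against Dbp at shared sites, had one of 1.30 (SE 0.40), Arntl (Bmal1) one of 0.69 and Cry2 one of 0.71, while Per1, Per2, Per3 and Cry1 lay between -0.17 and 0.09. The 12 immediate early genes were all above 0, with 4 of 12 higher (33.3%, against 10.9% of all genes) and a median of 0.50. Egr1 had a log2 difference of 1.15 (SE 0.38) and Fos one of 1.33 (SE 0.50), and the level of this list was highest in mouse 6 and lowest in mouse 8 of 26 months, which had the highest level of the glucocorticoid list. The hour of dissection, the feeding state and the handling of each mouse are not given in the sources used here, and their part in the clock, fasting and immediate early genes was not tested.

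The step can be set beside the 2 months before and after it. No gene differed between the step from 24 to 26 months and the step from 22 to 24 months at FDR 0.01 or 0.05 by edgeR, and 363 genes (2.88%) had an unadjusted p below 0.05 for this contrast. DESeq2 also called 0 at FDR 0.01. For the step from 26 to 28 months against that from 24 to 26 months the test again called 0 at both thresholds, with 574 genes (4.56%) at an unadjusted p below 0.05 and 0 by DESeq2 at FDR 0.01. These contrasts carry the spread of 3 ages and share the mice of 24 or 26 months with the main comparison.

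Mean levels at the 6 ages gave different courses for the genes above. Tbc1d1 was at 83.5, 86.0, 74.1, 68.4, 127 and 92.7 CPM from the youngest to the oldest of the 6 ages, so that its lowest mean came at 24 months and its highest at 26 months. For this gene the step from 26 to 28 months differed from the one before by -1.35 on the log2 scale, with an unadjusted edgeR p of 5.88e-05 and an adjusted p of 0.262. Tbc1d1 was chosen for its difference between 24 and 26 months, which is part of this contrast. Neither this p nor the form of its course is therefore an independent result. Map2k3 had the same form, at 167, 162, 157, 152, 205 and 186 CPM. Trim63 was at 97.2, 147, 97.7, 123, 424 and 415 CPM, a level reached at 26 months and held at 28 months with an SD of 282 CPM and 337 CPM. Fkbp5, Sesn1 and Mt1 had still higher means at 28 months, 241, 192 and 123 CPM after 212, 114 and 59.5 CPM at 26 months, with SDs at 28 months of 138, 161 and 174 CPM, so that each difference from 26 months is below the SD. Dbp was between 77.8 and 96.5 CPM up to 24 months and then at 38.3 and 40.7 CPM. Col15a1 had a lower mean at each age than at the one before, from 40.6 CPM at 8 months to 20.4, 12.4 and 11.5 CPM at 24, 26 and 28 months, so that its difference between 24 and 26 months continued an earlier course. Chrna1 was at 17.5 CPM at 8 months and already at 33.6 CPM at 24 months, against 33.3 CPM at 26 months.

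**Figure D4:**
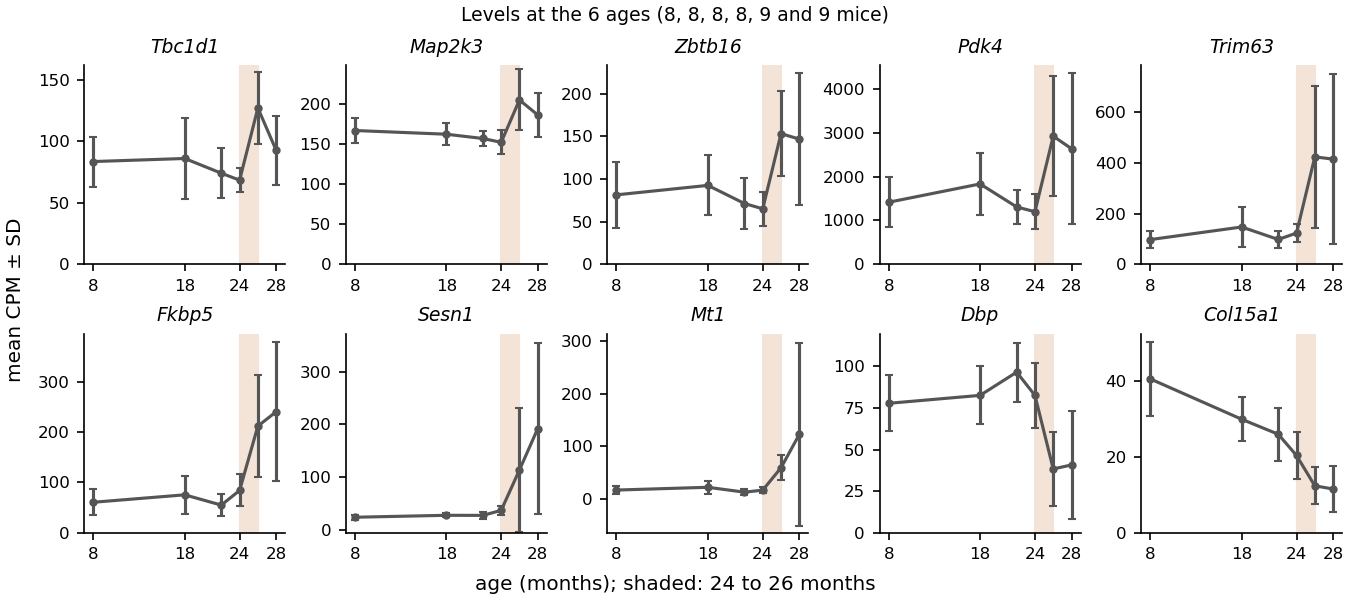
Mean CPM ± SD of 10 genes at the 6 ages (8, 8, 8, 8, 9 and 9 mice), with the time from 24 to 26 months shaded. Tbc1d1 and Map2k3 have their highest mean at 26 months, Trim63 and Dbp step once and stay, Fkbp5, Sesn1 and Mt1 have a higher mean again at 28 months, and Col15a1 is lower at each age than before.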

How the data were processed

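Gastrocnemius RNA of 8 mice of 24 months and 9 of 26 months was compared, with age and replicate number taken from the labels, and no batch is labelled. According to the methods and the labels, libraries were made with a stranded mRNA kit and read from both ends, reads were trimmed with Cutadapt 1.9.1 and assigned with kallisto 0.43.1 to protein-coding transcripts of GRCm38, and a read that fits several transcripts was shared evenly, so that values of near-identical genes are uncertain. The counts, deposited as whole numbers, were summed by the authors over the transcripts of a gene without normalization. The TPM values, as deposited, were scaled by the authors by transcript length and library size. Both tables hold 23880 genes.

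A single edgeR fit (4.0.16, under R 4.3.3) took the counts of all 50 mice with a coefficient for each age. It used TMM factors, its quasi-likelihood test and a filter of 1 CPM in 8 or more mice, and p-values were adjusted after Benjamini and Hochberg over 12586 genes. CPM values printed are TMM-scaled. PC1 came from log2(TPM + 1) of 12452 genes with genes and mice centered, and its coordinates were compared by exact permutation over 24310 splits (Python 3.11.15, numpy 2.4.6, pandas 2.3.3). Replicates are separate mice, and their spread gives the precision. A list is described by its counts and median, and its level in a mouse averages its tested genes on the log2(TPM + 1) scale after each was centered on the 17 mice. Alternatives were upper-quartile factors, DESeq2 1.42.0, limma 3.58.1 on log2(TPM + 1) and log2(TPM + 0.1), no filter on low genes, a fit of the 17 mice alone, the replicate number as a block and leaving out each mouse. The fit was tested on simulated data.

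The comparison and the 45 gene lists, written from general knowledge, were chosen with earlier results of these data known. One further list and some genes were chosen after their values were seen. Genes were named by rule: up to 8 in each direction with the largest difference past FDR 0.01, then FDR 0.05, and a mean of at least 5 CPM, which gave Tbc1d1, Map2k3 and Hsf2, and the member of each list with the lowest p. Glra3 and Pcdh12 were added as the other 2 genes past FDR 0.05, and every other gene was named after its values were seen. A few genes that the rule names are not reported here. Gene positions are from GENCODE vM21 and the promoter sequence from RefSeq, on GRCm38 as well.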

Additional observations from a re-analysis of the deposited data

Results flagged for a closer look

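Within each age, single mice stood apart from their group by Dixon's test in 24 of 282 groups of values examined (list levels, CPM of the named genes and PC1). Chance flags about 1 in 20 groups only where values are normally distributed, which CPM need not be, and values of one mouse are not independent.

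Mouse 1 of 24 months stood apart most often. It had the highest level of the denervation list (0.346) and the lowest of complex I (-0.178) and of complexes II to V (-0.235) in its age. It also had the highest CPM of its age for Sln (45.5), Nr4a3 (45.3), C4b (90.6), Cdkn1a (59.3), Mt2 (32.5), Cry2 (117), Chrna1 (55.3), Gadd45a (72.8) and Runx1 (18.1) and the lowest for Cox7a1 (103). Without this mouse 7 genes passed FDR 0.05.

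Of the other 24 months-old mice, mouse 5 was highest for the Schwann cell list (0.475), mouse 8 lowest for the clock list (-0.271), and mouse 2 highest for Pcdh12 (5.41 CPM) and lowest for Tsc22d3 (202 CPM). Mouse 4 was lowest for Eda2r (39.3 CPM) and mouse 3 for Ulk1 (99.0 CPM) and Foxo3 (29.4 CPM). Of the 26 months-old mice, mouse 8 was highest for Map2k3 (296 CPM), Hsf2 (54.0 CPM) and Cblb (81.9 CPM), and mouse 3 was highest for Myog (11.3 CPM).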

How the results depend on the processing

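The number of genes past FDR 0.05 rested on the tool and on single mice. It was 5 in the analysis described, 0 with upper-quartile factors, 144 with DESeq2, 0 with limma on log2(TPM + 1), 2 with log2(TPM + 0.1), 7 without the filter, 60 in a fit of the 17 mice alone and 394 at FDR 0.10. Leaving out each mouse gave 0 to 183: it was 183 without mouse 7 of 26 months, 115 without mouse 4, 103 without mouse 2 and 77 without mouse 5, 29 without mouse 8 of 24 months and 7 without mouse 1 of 24 months, 6 without mouse 6 and 2 without mouse 3 of 26 months, and 0 without mice 1, 8 or 9 of 26 months or any of mice 2 to 7 of 24 months. At FDR 0.01, where 0 genes passed, DESeq2 gave 14, no filter 1 and the 17 mice alone 4, the thresholds of 0.05 and 0.10 gave 5 and 394, and leaving out a mouse gave 0 to 1. Genes at an unadjusted p below 0.05 numbered 1567 to 2507 when a mouse was left out and 1816 to 2792 otherwise, against 2202. The step in PC1 was 13.5 to 18.6 with a mouse left out (p from 0.00171 to 0.0128) and 16.8 to 19.9 otherwise, and the p of its spread was never below 0.156. The larger spread at 26 months held in 62.4% to 70.8% of genes with a mouse left out. The contrasts with the steps before and after gave 0 genes at FDR 0.01 under each alternative run.

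Of the gene list medians, the glycolysis list ranged from 0.0092 to 0.098 with a mouse left out and the added glucocorticoid and fasting list from 0.80 to 1.10. With a mouse left out the medians also changed sign for the junction (-0.068 to 0.0074), membrane channel (-0.042 to 0.035), fast fibre (-0.061 to 0.032), heat shock (-0.045 to 0.033), fatty acid oxidation (-0.0067 to 0.099), mitochondrial regulator (-0.038 to 0.055), chemokine (-0.069 to 0.22), lymphocyte (-0.093 to 0.14), adipocyte (-0.24 to 0.042), blood (-0.25 to 0.13) and muscle marker (-0.0020 to 0.055) lists. They moved by over 1.5 times without a change of sign for denervation (0.25 to 0.47), slow fibre (-0.30 to -0.015), calcium handling (-0.083 to -0.035), myogenic (0.040 to 0.13), proteasome (0.084 to 0.17), metallothionein and oxidant defence (0.079 to 0.15), complex I (-0.15 to -0.068), complexes II to V (-0.13 to -0.057), citrate cycle (-0.055 to -0.0022), mitochondrial ribosome (-0.090 to -0.024), matrix (-0.16 to -0.012), growth factor (0.053 to 0.17), JAK-STAT (0.23 to 0.45), antigen presentation (-0.16 to -0.069), interferon (-0.31 to -0.12), fibroblast (-0.26 to -0.049) and Schwann cell (0.038 to 0.17) genes. The medians of the membrane channels and of the muscle markers changed sign with upper-quartile factors, to -0.03 and -0.01, as did that of all genes, to -0.03. Small differences of 4 named genes changed sign when a mouse was left out: Chrna1 (-0.068 to 0.13), Hba-a2 (-0.39 to 0.0056), Myh7 (-0.43 to 0.063) and Myog (-0.083 to 0.27). Each of the 5 genes past FDR 0.05 lost its call with upper-quartile factors (adjusted p 0.0551).

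The replicate numbers recur in both ages. Over 8 pairs the deviations of same-numbered mice correlated between -0.174 and 0.323, 4 pairs were over 0.1 and 3 mice correlated best with their own number. These values do not settle whether mice of one number shared a step of handling, which the labels do not state. With the replicate block 0 genes passed FDR 0.05 or 0.01 (adjusted p 0.0691 for the 5 genes) and 2323 had an unadjusted p below 0.05. Depth limits genes near 1 CPM such as Glra3, which had no count in mouse 4 of 24 months.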
